A study of Mus musculus with 16 samples.

Results

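Mitochondrial ribosomal protein genes, named Mrpl or Mrps followed by a number, encode the proteins of the ribosome that works inside mitochondria. The members were the genes whose symbol has this form and whose array row carried that symbol alone; a gene with several rows was represented by the row whose mean over the 16 arrays was highest. This gave 71 genes of the 22180 named genes on the array, 43 Mrpl and 28 Mrps. Of these, 70 were bright enough to be tested, and Mrps36 was not.

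Liver RNA came from 8 mice aged 18 months, 4 of each of 2 genotypes, on a C57BL/6J background. MYC mice (labelled MYC+/+, REG3A-/-) carry the c-MYC oncogene under the control of woodchuck hepatitis virus, which drives it in liver. MYC/REG3A mice (labelled MYC+/+, REG3A+/+) carry a REG3A transgene as well; REG3A is a lectin that cells secrete. From each mouse came 1 tumour sample and 1 sample of liver outside the tumour, so there are 4 groups of 4 arrays and each tumour is paired with liver of the same animal. All 4 groups carry the MYC transgene and no mouse without it was analysed here, so non-tumour liver is also MYC-transgenic, and pieces were dissected tissue rather than sorted cells.

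The mitochondrial ribosome translates the few respiratory chain proteins that mitochondrial DNA encodes. All of its protein subunits are made from nuclear genes in the cytosol and imported, and are assembled on ribosomal RNA transcribed from mitochondrial DNA. Part of them descend from bacterial ribosomal proteins and the rest were added in mitochondria. MYC is known as a general inducer of ribosome and mitochondrial biogenesis genes, and hepatocytes are rich in mitochondria.

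In tumours of MYC mice the genes rose as a group: 47 of the 70 tested members were higher than in non-tumour liver and 0 were lower. In tumours of MYC/REG3A mice 15 members rose and 0 fell, and all 15 were among the 47. Changes are differences of log2 values, so that a difference of 1 is a doubling of signal in relation to the array's other genes, and a member was called at an adjusted p under 0.05 in limma. Over all 13555 genes tested, 17.4% were called higher and 15.8% lower in MYC tumours, and 7.58% higher and 4.88% lower in MYC/REG3A tumours, against 67.1% and 21.4% of the members called higher. The median change of the members was 0.53 in MYC mice and 0.29 in MYC/REG3A mice, beside -0.03 and -0.02 over all genes tested.

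The median log2 level over the 70 members shows this array by array. In MYC mice 1 to 4 it was 7.26, 7.51, 7.23 and 7.24 in non-tumour liver and 7.84, 7.98, 8.05 and 7.95 in the tumours. The highest non-tumour value, that of mouse 2, lay below every tumour value. For MYC/REG3A mice 1 to 4 the median was 7.36, 7.47, 7.51 and 7.47 in non-tumour liver and 8.12, 7.61, 7.72 and 7.65 in the tumours. Here too the groups did not overlap, but the tumour of mouse 1 stood above the other 3.

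**Figure D1:**
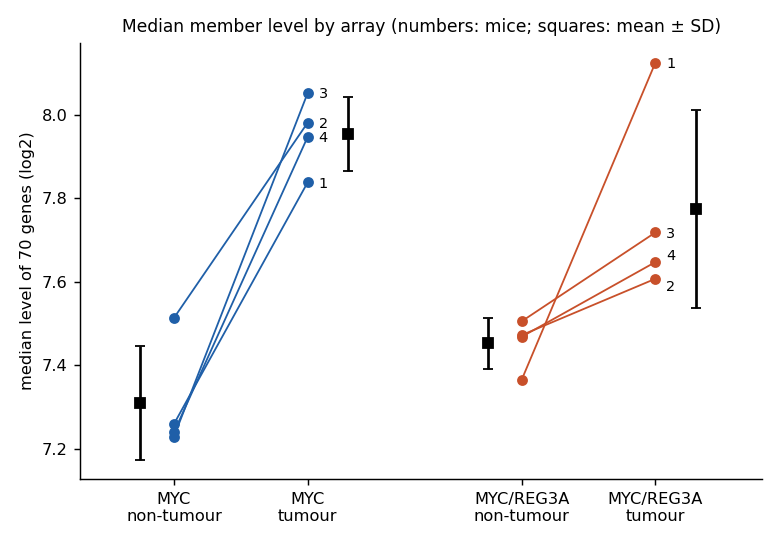
Median log2 level of the 70 tested members on each of the 16 arrays; a line joins the 2 samples of a mouse, numbers give the mouse, and squares with bars give mean ± SD (n = 4). The level is higher in the tumour of all 8 mice, and the tumour of MYC/REG3A mouse 1 (8.12) lies apart from the other 3 of its group (7.61 to 7.72).

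Within single mice the median change of the members was 0.49, 0.35, 0.63 and 0.56 in MYC mice 1 to 4 (mean 0.50 ± 0.12 SD, n = 4). It was 0.57, 0.22, 0.23 and 0.20 in MYC/REG3A mice 1 to 4 (mean 0.30 ± 0.18 SD, n = 4). The change in MYC/REG3A mouse 1 lay within the range of the MYC mice, and the other 3 lay below all 4 of them. Of the 70 members, 60 to 67 were higher in the tumour in each MYC mouse and 50 to 67 in each MYC/REG3A mouse. In MYC mice 54 members were higher in the tumour of all 4 mice, against 23.4% of all genes tested, and in MYC/REG3A mice 39 were, against 19.5%. No member was lower in all 4 tumours of either genotype, where 23.6% (MYC) and 20.9% (MYC/REG3A) of all genes were. Fitted changes were above 0 for 68 of the 70 members in MYC mice (47% of all genes) and for 64 in MYC/REG3A mice (47.2%).

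In MYC tumours the rise took in both subunits of the ribosome and both of its evolutionary layers. Of the large subunit, 20 of 28 bacterial homologues and 11 of 17 mitochondria-specific proteins were called higher. Of the small subunit, 9 of 15 bacterial homologues and 7 of 10 mitochondria-specific proteins were. Median changes of these 4 classes lay between 0.45 and 0.63. Of the 70 tested members, 50 had tumours that all lay above every non-tumour sample, against 16% of all genes. Of the 47 members called, a choice made on these same arrays, 46 were higher in the tumour of all 4 mice and 46 had groups that did not overlap. The exception on both counts was Mrpl32, a large-subunit protein, whose tumour value in mouse 2 (7.21) lay below the non-tumour value of that mouse (7.45).

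The member with the steepest rise was Mrpl47, the counterpart of bacterial L29 in the large subunit. It measured 6.25, 6.85, 6.27 and 6.27 in non-tumour liver of MYC mice 1 to 4 and 8.22, 7.99, 7.29 and 7.78 in their tumours. The change was 1.41 (SE 0.19), a 2.65-fold rise (limma adjusted p = 0.00121). Mouse 2 was the highest in non-tumour liver, yet all tumours lay above it. A dimmer second row of Mrpl47 changed by 1.18 in the same direction.

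Next came 3 further large-subunit proteins with bacterial homologues. Mrpl19 went from 7.28, 7.42, 6.97 and 7.21 to 8.36, 8.23, 8.40 and 8.49, a change of 1.15 (SE 0.18, limma adjusted p = 0.00209). Mrpl9 measured 6.68, 6.95, 6.60 and 6.83 in non-tumour liver and 8.57, 7.86, 7.53 and 7.65 in the tumours, a change of 1.14 (SE 0.17), with the tumour of mouse 1 well above the others. Mrpl13 measured 7.32, 7.52, 7.45 and 7.27 against 8.17, 8.71, 8.76 and 8.28, a change of 1.09 (SE 0.15). In each of the 3 the groups did not overlap. Mrps30, a mitochondria-specific protein that sits in the large subunit despite its symbol, was nearly constant in non-tumour liver (6.73 to 6.81) and stood at 7.84, 7.56, 8.08 and 7.88 in the tumours, a change of 1.08 (SE 0.14).

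Small-subunit proteins rose by similar amounts. Mrps22, a mitochondria-specific protein, measured 7.32, 7.53, 7.53 and 7.45 in non-tumour liver and 8.69, 8.26, 8.43 and 8.71 in tumours of MYC mice 1 to 4, a change of 1.07 (SE 0.14, limma adjusted p = 0.0011). Mrps5, whose bacterial homologue lines the entry of the messenger RNA, measured 7.48, 7.87, 7.42 and 7.53 against 8.45, 8.91, 8.33 and 8.73, a change of 1.03 (SE 0.14). A dimmer second row of Mrps5 differed by only 0.09, so the 2 rows of this gene disagree in size. In all, 7 members rose by at least 1.

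The 3 Mrps18 genes are paralogues of 1 bacterial protein, S18, and their products occupy different places, with Mrps18b and Mrps18c in the small subunit and Mrps18a in the large one. Mrps18b measured 8.46, 8.51, 8.09 and 8.57 in non-tumour liver and 9.22, 9.11, 9.61 and 9.44 in tumours of MYC mice 1 to 4, a change of 0.94 (SE 0.16, limma adjusted p = 0.00241). Mrps18a changed by 0.47 (SE 0.13, limma adjusted p = 0.0245), from 8.02, 7.85, 8.04 and 7.81 to 8.42, 8.27, 8.74 and 8.17. Mrps18c did not pass the test: it measured 6.59, 6.44, 6.95 and 6.68 against 6.84, 6.59, 6.97 and 6.65, a difference of 0.10 (SE 0.11, limma adjusted p = 0.52), and its groups overlapped. The differences between the paralogues were not tested.

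Mrpl12, a protein of the stalk that is also known to bind the mitochondrial RNA polymerase, rose in MYC tumours by 0.69 (SE 0.13, limma adjusted p = 0.00357), from 7.32, 7.67, 7.35 and 7.07 to 7.80, 8.26, 8.10 and 8.01. A dimmer second row of Mrpl12 differed by 0.22. At the other end, 2 members had differences below 0, neither of them called. Mrpl52 measured 9.36, 9.28, 9.53 and 9.29 in non-tumour liver and 9.33, 9.58, 9.15 and 9.26 in the tumours (-0.03, SE 0.15). Mrpl14, the counterpart of bacterial L14 at the subunit interface, differed by -0.03 (SE 0.12). Mrps36, now known as a subunit of the 2-oxoglutarate dehydrogenase complex rather than of the ribosome, was too dim to be tested and lay between 4.305 and 5.188 on the 16 arrays.

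**Figure D2:**
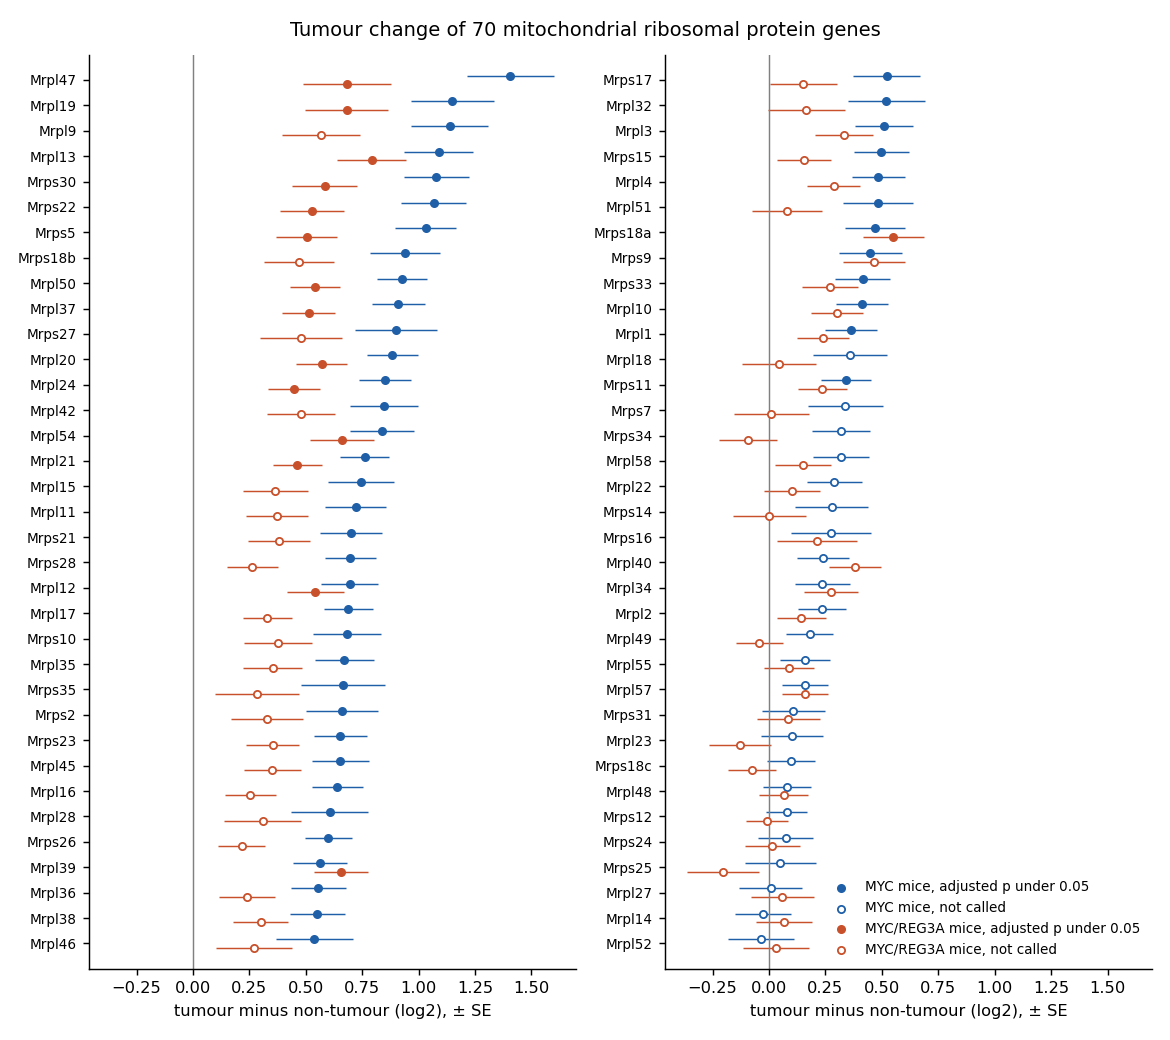
Tumour minus non-tumour difference (log2, ± SE from limma) of each of the 70 tested members, ordered by the value in MYC mice; filled points passed an adjusted p of 0.05 and open points did not. Values run from -0.03 to 1.41 in MYC mice (blue, 47 filled) and from -0.20 to 0.79 in MYC/REG3A mice (orange, 15 filled).

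In MYC/REG3A tumours the 15 members called were 13 proteins of the large subunit (of 45) and 2 of the small subunit (of 25). These shares were 28.9% and 8%, beside 7.58% of all genes, so the small-subunit share was near that of all genes. All 15, chosen on these same arrays, were higher in the tumour of all 4 mice, and 14 had groups that did not overlap. Of the 70 tested members, 32 had tumours that all lay above every non-tumour sample, against 11.2% of all genes. The 2 of the small subunit were Mrps5 and Mrps22. Median changes were 0.31 for the large and 0.24 for the small subunit, and the difference between them was not tested.

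The order of the members resembled that in MYC mice. Mrpl13 led, with 7.37, 7.51, 7.64 and 7.64 in non-tumour liver of MYC/REG3A mice 1 to 4 and 8.54, 8.27, 8.67 and 7.86 in their tumours, a change of 0.79 (SE 0.15, limma adjusted p = 0.0145). Mrpl47 went from 6.36, 6.83, 6.78 and 6.48 to 7.55, 6.94, 7.69 and 6.99, a change of 0.68 (SE 0.19, limma adjusted p = 0.0472). For Mrpl47 the tumours of mice 1 and 3 were high and those of mice 2 and 4 lay just above the highest non-tumour value. Mrpl19 rose by 0.68 (SE 0.18), with tumours at 8.61, 7.51, 8.14 and 7.64 and non-tumour liver between 7.15 and 7.47.

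Mrpl54 and Mrpl20 were steadier across these mice, while Mrpl39 rose by 0.849, 0.431, 0.949 and 0.396 in mice 1 to 4. Mrpl54, a mitochondria-specific large-subunit protein, measured 6.98, 6.92, 6.77 and 7.06 in non-tumour liver and 7.78, 7.44, 7.46 and 7.70 in tumours of MYC/REG3A mice 1 to 4, a change of 0.66 (SE 0.14, limma adjusted p = 0.0201). Mrpl39, a mitochondria-specific protein that resembles threonyl-tRNA synthetases, measured 9.32, 9.38, 9.40 and 9.40 against 10.17, 9.81, 10.35 and 9.79, a change of 0.66 (SE 0.12, limma adjusted p = 0.012). Mrpl20, the counterpart of bacterial L20, measured 6.39, 5.99, 6.18 and 6.29 against 7.004, 6.504, 6.84 and 6.79, a change of 0.57 (SE 0.11). All tumours of these 3 genes lay above all non-tumour samples. Mrpl39 and Mrps18a were among the few members whose change was not smaller than in MYC mice, where Mrpl39 rose by 0.56.

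Mrps30 rose by 0.58 (SE 0.14), with non-tumour liver at 6.74, 6.93, 7.10 and 6.67 and tumours at 7.82, 7.45, 7.33 and 7.18 in MYC/REG3A mice 1 to 4. Mrps18a rose by 0.55 (SE 0.13, limma adjusted p = 0.0296), with tumours between 8.10 and 8.58 and non-tumour liver between 7.64 and 8.02. Mrpl12 rose by 0.54 (SE 0.13). Mrps18b, with tumours at 9.51, 8.87, 8.98 and 8.81 above non-tumour values of 8.48 to 8.65, missed the threshold (0.47, SE 0.16, limma adjusted p = 0.074). A second row of Mrps18b was about as bright (mean 8.8 against 8.84). It differed by 0.61 here and by 1.03 in MYC mice, and was not tested on its own. Mrps18c differed by -0.07 (SE 0.11). Differences below 0 that did not pass the test were those of Mrps25 (-0.20, SE 0.16), Mrpl23, which lies at the exit of the peptide tunnel (-0.13, SE 0.14), Mrps34 (-0.09, SE 0.13) and 3 more. For Mrps25 only the tumour of mouse 1, at 7.09, was above its own liver.

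**Figure D3:**
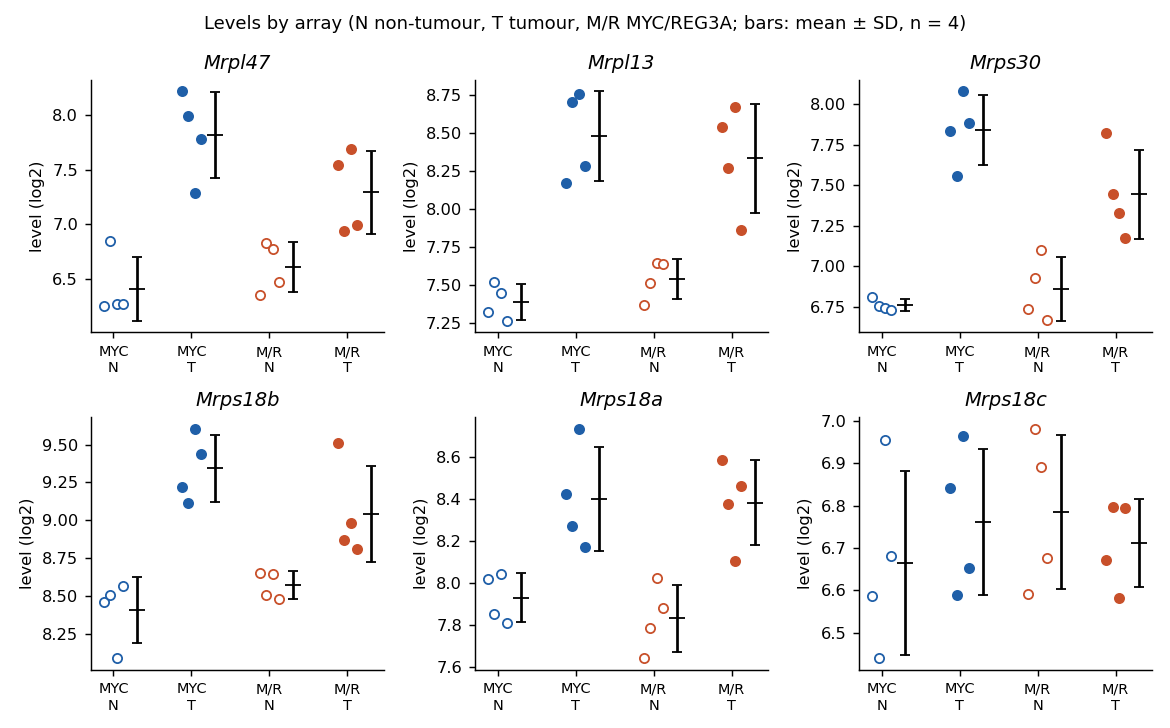
Log2 levels of 6 members on every array, with open circles for non-tumour liver, filled circles for tumours and bars for mean ± SD (n = 4 mice). Mrpl47, Mrpl13, Mrps30, Mrps18b and Mrps18a have no overlap between tumour and non-tumour samples within a genotype, while the groups of Mrps18c overlap throughout (6.44 to 6.98).

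The count in MYC/REG3A mice depended on single animals. Without mouse 1 it was 0 members (median change 0.20), without mouse 3 it was 1 (median change 0.31), and without mouse 4 it was 8. The calls over all genes shrank as well, to 1.82% called higher without mouse 1 and 1.77% without mouse 3. The count in MYC mice lay between 32 and 46 with any 1 of the 8 mice left out, and 32 members were called in each of the 4 fits that left out a MYC mouse. No member was called in all 4 fits that left out a MYC/REG3A mouse.

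In MYC/REG3A mouse 3 the genes of the mitochondrial and the cytosolic ribosome differed most. The spread of its tumour changes over all genes was large (SD 0.66, against 0.34 in mouse 2 and 0.43 in mouse 4), and the median change of 63 cytosolic ribosomal protein genes was 0.78. Its mitochondrial ribosomal protein genes had a median change of only 0.23, and 50 of the 70 were above 0. In mouse 1, with a like overall spread (SD 0.68), the medians were 0.84 for the cytosolic and 0.57 for the mitochondrial set. MYC mouse 3 showed the opposite order, with 0.44 for the cytosolic and 0.63 for the mitochondrial set, the highest mitochondrial median of the 8 mice.

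The tumour change was smaller in MYC/REG3A than in MYC mice for 61 of the 70 members, with a median difference of -0.30. A difference above 0 was seen for 49.3% of all genes. Lists of like genes leaned the same way. The difference was below 0 for 25 of 26 assembly factors, 18 of 19 transfer RNA enzymes and 14 of 20 import genes. It was below 0 for 52 of 63 cytosolic ribosomal protein genes and 46 of 58 respiratory chain subunits. Over all genes the SD of the tumour changes was 0.62 to 0.73 in MYC mice. It was 0.68, 0.34, 0.66 and 0.43 in MYC/REG3A mice 1 to 4. Of the members, 0 passed the test of the difference, where 0.00738% of all genes were called (1 gene, lower). At an unadjusted p under 0.05 limma had 13 members, all with the smaller change in MYC/REG3A mice, against 5.58% of all genes in either direction. The lowest p-values were those of Mrps5 (-0.53, SE 0.19), Mrps28, the small-subunit protein related to bacterial S1 (-0.43, SE 0.16), and Mrps22 (-0.54, SE 0.20), each with a limma adjusted p of 0.87. Mrps28 measured 6.21, 5.93, 6.28 and 5.92 in MYC non-tumour liver and 6.97, 6.88, 6.70 and 6.58 in MYC tumours. In MYC/REG3A mice it measured 6.16, 6.22, 6.22 and 6.56 in non-tumour liver and 6.51, 6.53, 6.62 and 6.56 in tumours, so that the tumours were tightly grouped and mouse 4 had no gap between its samples. Over the 70 members the changes of the genotypes correlated (Pearson r = 0.85, Spearman rho = 0.86), about as over all 13555 genes (r = 0.87). These points are genes measured on the same 16 arrays and are not independent replicates.

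The genotypes were also compared within each tissue, on the same arrays. In non-tumour liver 63 of the 70 members were higher in MYC/REG3A than in MYC mice, with a median difference of 0.12, where 48.9% of all genes were higher. So were 49 of 58 respiratory chain subunits, 17 of 20 import genes, 16 of 19 transfer RNA enzymes and 21 of 26 assembly factors. Only 15 of 63 cytosolic ribosomal protein genes were. Markers of sinusoidal endothelial, stellate and dividing cells were lower in 7 of 7 cases each and those of Kupffer cells in 6 of 7, none called. Their part in the difference was not tested. As over all genes (0%), 0 members were called. At an unadjusted p under 0.05, reached by 5.45% of all genes, limma had 2 members: Mrps26, a mitochondria-specific small-subunit protein (0.29, SE 0.12, limma adjusted p = 0.9), and Mrpl37 (0.25, SE 0.10). Mrps26 measured 6.73, 6.91, 6.69 and 6.84 in MYC and 7.05, 7.03, 7.16 and 7.07 in MYC/REG3A non-tumour liver, without overlap. Such separation was seen for 6 members, against 1.61% of all genes. The third lowest p was that of Mrps14 (0.30, SE 0.15), a dim gene above the array median on only 5 arrays.

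In tumours 57 of the 70 members were lower in MYC/REG3A than in MYC mice, with a median difference of -0.12, where 47.5% of all genes were higher. So were 21 of 26 assembly factors, 17 of 19 transfer RNA enzymes and 54 of 63 cytosolic ribosomal protein genes, but only 33 of 58 respiratory chain subunits. None of the members was called, beside 0.0221% of all genes (3 genes). At an unadjusted p under 0.05 limma had 10 members, all lower in MYC/REG3A tumours, beside 10.6% of all genes in either direction. Mrpl20 had the lowest p (-0.43, SE 0.13, limma adjusted p = 0.32): it measured 7.20, 7.41, 7.23 and 7.03 in MYC tumours and 7.004, 6.504, 6.84 and 6.79 in MYC/REG3A tumours, without overlap, the only member whose MYC/REG3A tumours all lay below the MYC tumours (all genes 1.9%). The values of Mrps22 (-0.42, SE 0.14) and Mrpl32 (-0.42, SE 0.15) overlapped between the genotypes. These differences and those of non-tumour liver come from the arrays that also gave the tumour changes.

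Outside the Mrp symbols, genes needed to build and run the mitochondrial ribosome were looked at as lists. Of 3 ribosomal proteins with other names, Dap3, a small-subunit protein also known as a GTP-binding death-associated protein, rose in MYC tumours by 1.03 (SE 0.15), from 7.91, 8.15, 8.09 and 8.05 to 9.57, 9.15, 8.72 and 8.88. Dap3 in MYC/REG3A tumours differed by 0.53 (SE 0.15, limma adjusted p = 0.052). Ptcd3 differed by -0.37 and -0.50 (SE 0.31 in both) and Gadd45gip1 by 0.11 and 0.14 (SE 0.10 in both), none of them called.

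Assembly and ribosomal RNA modification factors rose in 15 of 26 cases in MYC and 6 of 26 in MYC/REG3A tumours, and 0 fell. Of all genes, 17.4% and 7.58% were called higher and 15.8% and 4.88% lower. Noa1, a GTPase of small-subunit assembly, rose by 1.11 (SE 0.14) and 0.78 (SE 0.14). Fastkd2, an RNA-binding protein of mitochondrial RNA granules, rose by 1.11 (SE 0.13) and 0.50 (SE 0.13). Mrm3, a ribosomal RNA methyltransferase, rose by 0.84 and 0.48 (SE 0.11 in both), and Mettl15, another one, by 1.22 and 0.83 (SE 0.20 in both). Mterf4, which brings a methyltransferase to the large subunit, rose by 0.68 and 0.38 (SE 0.10 in both).

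Mitochondrial translation factors rose in 8 of 14 cases in MYC tumours and in 0 of 14 in MYC/REG3A tumours (all genes 17.4% and 7.58%). The elongation factors Gfm1 (0.93, SE 0.19) and Tufm (0.63, SE 0.14), the recycling factor Mrrf (0.60, SE 0.11), Taco1, an activator of cytochrome oxidase translation (0.62, SE 0.14), and the messenger RNA stabiliser Lrpprc (0.90, SE 0.21) were among the 8. These 5 genes differed in MYC/REG3A mice by 0.39, 0.28, 0.22, 0.31 and 0.37, none of them called. The difference between genotypes passed the test for 0 of the 14.

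Enzymes that charge mitochondrial transfer RNAs rose in 13 of 19 cases in MYC and in 5 of 19 in MYC/REG3A tumours. Of all genes, 17.4% and 7.58% did. The enzymes for tyrosine, Yars2 (1.48 and 1.38, SE 0.21), threonine, Tars2 (1.46 and 0.94, SE 0.12), leucine, Lars2 (1.02 and 0.59, SE 0.13), and glutamate, Ears2 (0.85 and 0.73, SE 0.14), rose in both genotypes. The enzyme for methionine, Mars2, rose in MYC tumours (1.08, SE 0.14) and just missed the threshold in MYC/REG3A tumours (0.47, SE 0.14, limma adjusted p = 0.051).

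Of 10 genes that transcribe and copy mitochondrial DNA, 6 rose in MYC and 2 in MYC/REG3A tumours. The shares were 60% and 20%, beside 17.4% and 7.58% of all genes. The helicase Twnk (0.87 and 0.54, SE 0.12) and the topoisomerase Top1mt (0.9998 and 0.55, SE 0.15) rose in both. The transcription factor Tfb2m (1.004, SE 0.20), the nuclease Mgme1 (0.88, SE 0.17) and the RNA polymerase Polrmt (0.35, SE 0.10) rose in MYC tumours. Tfam, which packages mitochondrial DNA, differed by 0.14 and 0.17 (SE 0.14) and was not called.

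Subunits of the mitochondrial protein import machinery rose in 13 of 20 cases in MYC and in 8 of 20 in MYC/REG3A tumours. Over all genes the shares were 17.4% and 7.58%. Tomm22, a receptor of the outer membrane, rose by 1.57 and 0.95 (SE 0.19), and Timm9, a chaperone of the intermembrane space, by 1.41 and 1.26 (SE 0.19). Tomm20, another receptor, rose by 0.85 and 0.75 (SE 0.15), Timm8b by 0.83 and 0.56 (SE 0.12), and Pam16, a part of the import motor, by 0.52 and 0.64 (SE 0.11). Tomm40, the channel, rose in MYC tumours (0.95, SE 0.15) and differed by 0.50 in MYC/REG3A tumours (limma adjusted p = 0.057).

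Of 9 tested regulators of mitochondrial biogenesis, 2 rose in MYC tumours (22.2%, all genes 17.4%) and 1 in MYC/REG3A tumours (11.1%, all genes 7.58%), shares near those of all genes. The coactivators Pprc1 (0.73, SE 0.11) and Ppargc1b (0.93, SE 0.25) were the 2 in MYC tumours, and Pprc1 (0.67, SE 0.11) the 1 in MYC/REG3A tumours. Ppargc1a (0.56, SE 0.22) was not called. The Myc row fell in MYC tumours by 0.59 (SE 0.13), from 7.92, 7.78, 7.61 and 7.41 to 7.09, 7.24, 7.17 and 6.84. In MYC/REG3A mice it ranged from 6.99 to 9.24 in non-tumour liver and from 7.10 to 9.37 in tumours, with both samples of mouse 2 high. Whether this mouse row also detects the transgene's transcript is not stated in the sources used here, so it is no measure of MYC activity.

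Set beside the larger families, 52 of 63 cytosolic ribosomal protein genes rose in MYC and 39 in MYC/REG3A tumours, with medians of 0.78 and 0.60. Of 58 nuclear subunits of respiratory chain complexes I to IV, 25 rose in MYC tumours and 1, Ndufb7, fell, and 8 rose in MYC/REG3A tumours. Their medians were 0.33 and 0.19. Over all genes, 17.4% were called higher and 15.8% lower in MYC tumours, and 7.58% and 4.88% in MYC/REG3A tumours. The mitochondrial ribosomal proteins lay between these families in both the share called and the median, in both genotypes, and the differences between families were not tested.

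**Figure D4:**
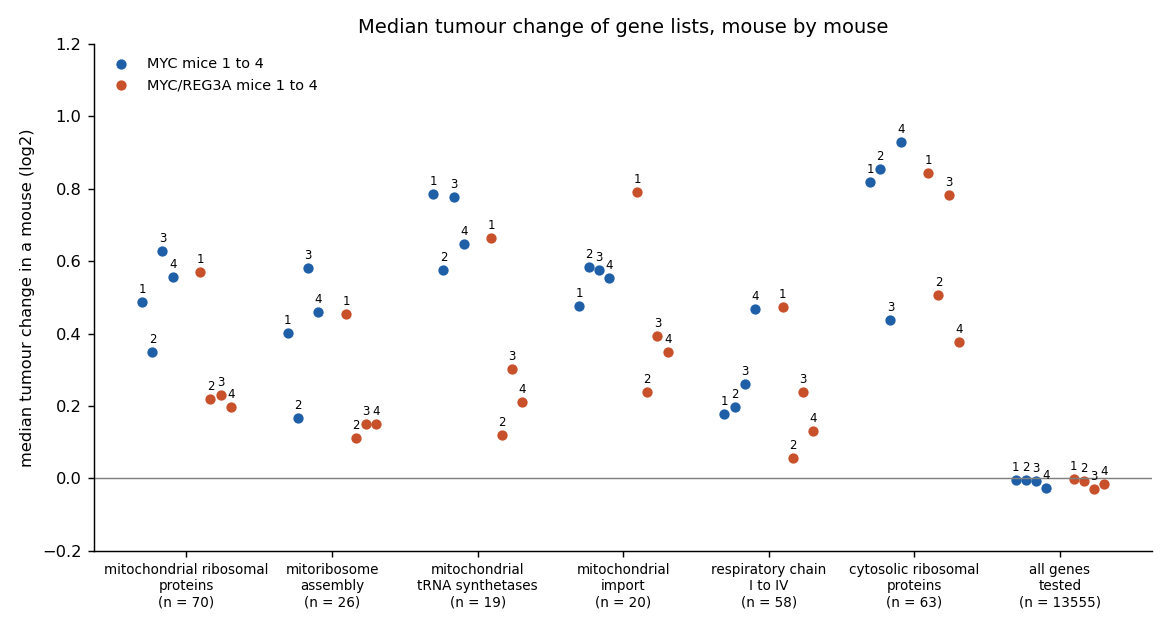
Median tumour minus non-tumour difference (log2) of 6 gene lists and of all tested genes in each mouse, with the mouse number above each point and the number of genes under each list. All genes lie near 0 in every mouse, the 6 lists lie above 0 in all 8 mice, and MYC/REG3A mouse 1 is the highest of its genotype in each list.

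Markers of dividing cells and of several other cell types differed between tumours and non-tumour liver. Of all genes tested, 15.8% were called lower in MYC and 4.88% in MYC/REG3A tumours, and 17.4% and 7.58% higher. All 7 tested markers of dividing cells rose in both genotypes; their summed log2 level was 36.6 to 43.5 in MYC non-tumour liver and 48.5 to 55.6 in MYC tumours, and 34.5 to 36.6 and 46.7 to 56.3 in MYC/REG3A mice. Their median change was largest in MYC/REG3A mouse 1 (2.73, against 1.35 to 1.85 in mice 2 to 4), the mouse with the largest change of the mitochondrial ribosomal proteins in that genotype. In MYC/REG3A mice 2 to 4 the dividing-cell medians were 1.35, 1.47 and 1.85, and those of the members lay close together (0.22, 0.23 and 0.20). For MYC mice 1 to 4 the dividing-cell medians were 0.999, 1.58, 1.60 and 2.23 and those of the members 0.49, 0.35, 0.63 and 0.56. Mice 3 and 4 there stood above mice 1 and 2 in both. A link between the 2 sets of genes was not tested. Markers of Kupffer cells and macrophages fell in 6 of 7 cases in both genotypes, with sums of 57.7 to 67.9 against 50.3 to 58.4 in MYC mice and 60.4 to 64.6 against 47.6 to 58.3 in MYC/REG3A mice. Sinusoidal endothelial markers fell in 6 of 7 and 5 of 7 cases, with sums of 61.0 to 65.7 against 55.1 to 57.5 in MYC mice and 59.0 to 61.9 against 53.6 to 59.7 in MYC/REG3A mice. Markers of stellate cells and fibroblasts fell in 4 of 7 and 3 of 7 cases, but that list was split. Differences above 0, none called, were seen for 1 of 7 in MYC (0.157) and 2 of 7 in MYC/REG3A mice (highest 0.652). In MYC/REG3A mice 2 of the 7 were higher in all 4 tumours. B and plasma cell markers fell in 3 of 4 cases in both. Neutrophil markers fell in 3 of 3 cases in MYC and 0 of 3 in MYC/REG3A tumours, and bile duct markers in 2 of 4 and 0 of 4, but 0 of these markers passed the test of the difference between genotypes. Of T cell markers 0 of 3 were called in either genotype. On the adipocyte list Fabp4 rose by 1.88 and 2.73 (SE 0.45 in both), while Plin1 differed by -0.01 and 0.11 and was not called. Markers of hepatocytes, including Alb and Hnf4a, were present on every array (sums of 70.2 to 73.2). Of the 6, 2 fell in MYC and 1 in MYC/REG3A tumours (all genes 15.8% and 4.88%). On lists of so few markers, 1 or 2 calls carry little weight. None of the markers of dividing, Kupffer, endothelial, stellate, B and plasma cells or hepatocytes lay below the lower quartile of the array on all arrays of a group. In such bulk tissue fewer cells of a type and less RNA per cell cannot be told apart, and the part of these shifts in the rise of the mitochondrial ribosomal proteins was not tested.

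The promoters were read for motifs that the members hold, from RefSeq windows (GRCm38.p6) of 250 bases before to 50 bases after the transcription start. A window was at hand for 62 of the 71 members, and 4 motifs were searched on both strands: CACGTG, the E-box that MYC binds; GCGCATGC, of the factor NRF1; CCGGAAGT, of ETS factors such as GABPA; and AAGATGGC, of YY1. The E-box was found in 5 members (8.06%), against 11.4% of the 10633 tested genes with a window and 8.09% of all genes with one. The others were found in 7 members for NRF1 (11.3%, tested genes 5.42%), 10 for ETS (16.1%, tested genes 7.97%) and 12 for YY1 (19.4%, tested genes 4.75%). Over all promoter windows of this length the shares were 7.15%, 2.71%, 3.89% and 2.75% for E-box, NRF1, ETS and YY1. Among members with a window, 39 called higher in MYC tumours and 22 not called were set side by side. The E-box was held by 7.69% of the called and 9.09% of the others, the ETS motif by 12.8% and 22.7%, the YY1 motif by 20.5% and 18.2%, and the NRF1 motif by 15.4% (6 members) and 4.55% (1 member). These shares rest on few members and were not tested. In 33 members none of the 4 was found, which says only that these letters are not in these windows. A match is a string of letters and not a measured binding site.

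The YY1 motif was the one found most often, and its surroundings are shown for the 12 members, read so that the motif runs 5′ to 3′ and stands in capitals. In 8 of the 12 it lay on the strand of the gene and began 11 to 36 bases after the transcription start, and the motif contains the letters ATG. Whether this ATG is the start codon of the gene was not looked up. In these 8 a YY1 site and coding letters cannot be told apart, which also limits the share of 19.4%. Of the 12, 8 were called higher in MYC tumours, a share close to that over all tested members (67.1%).
Mrpl32: tttccgggtaAAGATGGCagagcgcg
Mrpl35: ggcaggctgcAAGATGGCggcttccatc
Mrpl36: gccaggaagaAAGATGGCgtaaggtcac
Mrpl37: tgcacgggcaAAGATGGCggcgtccagg
Mrpl42: agattgaagcAAGATGGCgagcgcgcgg
Mrpl49: ttgaggcgccAAGATGGCagcagcggtg
Mrps11: ggaagacagaAAGATGGCggcgcccgta
Mrps12: tttccactccAAGATGGCtgcgtccatg
Mrps18a: ggtgcgttccAAGATGGCggccctcagg
Mrps24: gcgccggcccAAGATGGCgtggtc
Mrps27: ggtgcgctccAAGATGGCggctcccatg
Mrps7: gacagcggccAAGATGGCtgcccccgcg

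Of the 5 members with an E-box, Mrpl37, Mrpl20 and Mrpl36 rose in MYC tumours, while Mrpl2 (0.24, SE 0.11) and Mrps18c were not called. The promoters of the 3 that rose are printed 5′ to 3′ on the strand of the gene, with each motif found in capitals. Mrpl20 (chr4:155802628-155802927, plus strand) holds CACGTG from 33 bases before the start. Mrpl37 (chr4:107066817-107067116, minus strand) holds it further upstream and the YY1 motif from base 26 after the start. Mrpl36 (chr13:73330759-73331058, plus strand) holds the E-box from 43 bases before the start and the YY1 motif, on the opposite strand, from 30 bases before it.
Mrpl20: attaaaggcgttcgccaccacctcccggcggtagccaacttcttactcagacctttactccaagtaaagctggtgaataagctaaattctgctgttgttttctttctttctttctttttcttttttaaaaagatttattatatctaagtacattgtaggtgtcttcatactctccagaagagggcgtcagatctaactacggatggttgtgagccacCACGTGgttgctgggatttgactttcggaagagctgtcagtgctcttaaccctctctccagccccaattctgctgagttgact
Mrpl37: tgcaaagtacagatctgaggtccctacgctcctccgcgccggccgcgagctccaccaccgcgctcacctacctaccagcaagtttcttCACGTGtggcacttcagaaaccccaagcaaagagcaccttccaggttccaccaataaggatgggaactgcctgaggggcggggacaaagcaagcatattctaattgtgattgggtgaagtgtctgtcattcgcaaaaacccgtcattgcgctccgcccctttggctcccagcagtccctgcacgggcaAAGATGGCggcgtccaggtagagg
Mrpl36: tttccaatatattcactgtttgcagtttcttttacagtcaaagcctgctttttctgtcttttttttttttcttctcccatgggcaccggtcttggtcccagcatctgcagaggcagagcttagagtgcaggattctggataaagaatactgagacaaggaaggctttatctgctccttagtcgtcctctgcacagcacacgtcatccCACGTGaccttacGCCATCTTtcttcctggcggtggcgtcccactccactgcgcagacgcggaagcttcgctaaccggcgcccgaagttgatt

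These 3 genes rose in MYC tumours by 0.88 (Mrpl20, SE 0.11), 0.91 (Mrpl37, SE 0.12) and 0.56 (Mrpl36, SE 0.12). Mrpl37, a mitochondria-specific large-subunit protein, measured 7.98, 8.20, 7.98 and 8.06 in non-tumour liver and 8.88, 9.05, 8.96 and 8.98 in tumours of MYC mice 1 to 4. In MYC/REG3A mice Mrpl37 rose by 0.51 (SE 0.12) and Mrpl36, a large-subunit protein with a bacterial homologue, differed by 0.24 (SE 0.12) without passing the test. Of the 7 members that rose by at least 1, Mrpl9 held the NRF1 motif and Mrps22 the ETS motif. The windows of Mrpl47, Mrps30 and Mrps5 held none of the 4, and Mrpl19 and Mrpl13 had no window.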

How the data were processed

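Gene expression was measured on a mouse Affymetrix array, 1 array per sample. Per the submitters' processing notes, the authors summarised the probes with RMA (Affymetrix Expression Console 1.4.1). The deposited values were taken as log2 from their range, since no source used here gives the base. RMA makes the distributions of the arrays equal, so a change is relative to the other genes. Of 41345 rows, 23521 carried 1 gene symbol in the platform annotation, 1814 several and 16010 none; 13 rows that name a member together with another gene were left out. A gene was tested if it exceeded the array median over all rows on at least 4 of the 16 arrays. No detection calls were used and no counts exist, so the number of arrays limits the precision.

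Differences were fitted in limma 3.58.1 (R 4.3.3, lmFit and eBayes, 2-sided) over all 16 arrays and 13555 genes, with Benjamini-Hochberg adjustment over all of them. The mouse was a block in the tumour comparisons and in the difference between them, since both samples come from 1 animal: the deviations of its 2 arrays from their group means correlated at 0.0963 to 0.326. Comparisons between genotypes used group means without a block. SE values rest on a spread pooled over groups; SD values are over 4 mice. The fit was tested on simulated data.

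The members, gene lists and motifs were chosen with earlier results of these data known. Named with values were, per tumour comparison, the 8 members that rose most among those called and higher in all 4 mice, the 3 of lowest p where fewer than 3 fell, the 3 of lowest p in the other comparisons, and Mrpl12, the Mrps18 genes, Mrps30 and Mrps36. Of each pathway list up to 4 genes of lowest p per direction were named, with Dap3, Ptcd3, Tufm, Polrmt, Tfam, Lrpprc, Ppargc1a and Myc. Among RefSeq protein-coding genes, 78 symbols have the Mrp form; Mrpl30, Mrpl33, Mrpl41, Mrpl43, Mrpl44, Mrpl53 and Mrps6 had no row of their own and were not analysed here. Alternatives covered the filter, the choice of row, the scaling, the prior, array weights, the block, the arrays in the fit and each mouse left out.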

Additional observations from a re-analysis of the deposited data

Results flagged for a closer look

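Among 106 groups of 4 arrays or mice examined, 6 had 1 value that stood further from the rest than Dixon's limit allows, and chance flags about 1 in 20. The median level of the members in MYC non-tumour liver was highest in mouse 2, at 7.513, against a median of 7.239 in the other 3. In the same group Mrpl47 was highest in mouse 2, at 6.852 (other 3, median 6.269). In MYC tumours Mrpl32 was lowest in mouse 2, at 7.208 (other 3, median 7.75), and the untested Mrps36 was lowest in mouse 1, at 4.305 (other 3, median 4.735). In MYC/REG3A non-tumour liver Mrps28 was highest in mouse 4, at 6.562 (other 3, median 6.223). The median change of the members per MYC/REG3A mouse was highest in mouse 1, at 0.5695, against a median of 0.2187 in the other 3.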

How the results depend on the processing

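In MYC mice the count of members called higher stayed between 41 and 49 under the alternatives that kept all MYC mice, and between 32 and 46 with any 1 of the 8 mice left out; their median change lay between 0.486 and 0.59 there. In MYC/REG3A mice the count of 15 became 24 with the mouse as a random block and 9 in a fit over the 8 arrays of that genotype. With 1 mouse left out it ran from 0 (without MYC/REG3A mouse 1) to 14, with 1 without mouse 3 and 8 without mouse 4, and the median change from 0.197 to 0.332. Fewer samples enter those fits. Without MYC/REG3A mice 2 and 4 together it was 10. With no replicate block the counts were 47 and 15, so leaving out the pairing changed neither count. No member was called in the other 3 comparisons under any alternative run, and the difference of the changes kept a median of -0.381 to -0.212 with 1 mouse left out. In MYC/REG3A mice Mrpl47 (adjusted p = 0.0472 as reported) was lost under 5 alternatives that kept all mice and Mrpl19 under 3. The 2 rows of Mrps5, Mrpl10 and Mrps16 disagree: their dimmer rows differed by 0.0909, -0.0934 and 0.0224 in MYC tumours. The dimmer rows of Mrpl12 and Mrps17 differed by 0.218 and 0.21, against 0.694 and 0.521 in the rows used. How far a single gene lay above background is not known.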
